A study of Mus musculus with 24 samples.

Results

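The libraries of this study fall into a low-numbered and a high-numbered set, and the comparison of those sets is described here across all expressed genes. The low-numbered set holds 11 of the 24 libraries: replicates 1 and 2 of WT stress, 1 to 3 of WT control, 1 and 2 of KO stress, and 1 to 4 of KO control. The high-numbered set holds the other 13: replicates 3 to 6 of WT stress, 4 to 7 of WT control, 3 to 5 of KO stress, and 5 and 6 of KO control. The libraries were chosen by their measured level of Rn45s, the 45S ribosomal RNA precursor, so that level and every gene difference between the sets is given as a description, with no p-value. Tests were kept for what that choice left free, which is whether the effect of stress or of genotype differed between the sets and how genes moved with Rn45s inside each set. Each difference is on the log2 scale, low-numbered minus high-numbered, from an edgeR quasi-likelihood model with the 4 groups as terms, and is followed by its standard error.

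Hippocampal RNA of C57BL/6 mice was sequenced. The groups were WT mice under stress (6 libraries) or as controls (7), and IL-1R1 knockout mice (KO, written as a neuronal knockout in the study's design text) under stress (5) or as controls (6). The stressor was paired fighting, a form of social defeat in which a mouse is exposed to aggressive opponents. IL-1R1 is the receptor of the cytokine interleukin-1. The labels name no Cre driver, age, sex, housing, sampling time, sequencing date or selection of RNA, and do not say what the replicate numbers mark. They also do not say whether each library is 1 mouse, so the spread between libraries may be partly technical.

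Ribosomal RNA is made in the nucleolus as the long 45S precursor, which is cut into the mature species. Polyadenylated messenger RNA is normally separated from ribosomal RNA before sequencing, so counts on Rn45s depend on library preparation as well as on the tissue. Malat1 is a long non-coding RNA that stays in the nucleus. The hippocampus lies next to the thalamus, the choroid plexus and the cortex, and each of these carries transcripts that hippocampal neurons hardly make. In hippocampal cells, corticosterone released under stress acts through the glucocorticoid receptor on genes such as Fkbp5, Tsc22d3 and Sgk1, while neuronal firing induces immediate early genes such as Fos and Btg2 within minutes.

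A low-numbered library held 25711872 to 30204421 counts and a high-numbered one 26157103 to 35148198. The 10 most abundant genes took 5.26% to 7.78% of all counts in the low-numbered libraries and 3.43% to 3.84% in the high-numbered ones. Of 24062 genes in the table, 16313 passed the filter on low counts and were tested. The targeted gene did not part the genotypes: Il1r1 lay between 2.10 and 7.93 CPM (counts scaled to the library's total) in the 11 libraries labelled KO and between 1.99 and 7.31 CPM in the 13 labelled WT, and the deleted stretch is not given in the labels. Markers of hippocampal neurons were detected in every library: Prox1, which marks dentate granule cells, was at 4.16 to 10.7 CPM in the low-numbered set and 7.4 to 13.8 CPM in the high-numbered set, and Camk2a, a kinase of excitatory synapses across the forebrain, was at 2435 to 3202 CPM in the low-numbered set and 2119.7 to 5130.3 CPM in the high-numbered set. In 3 high-numbered stress libraries (KO replicates 3 and 5, WT replicate 5) Tcf7l2, a transcription factor of thalamic neurons, was above 80 CPM, apart from all other libraries. The main counts and some of the list results are also given without these 3 libraries.

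**Figure D1:**
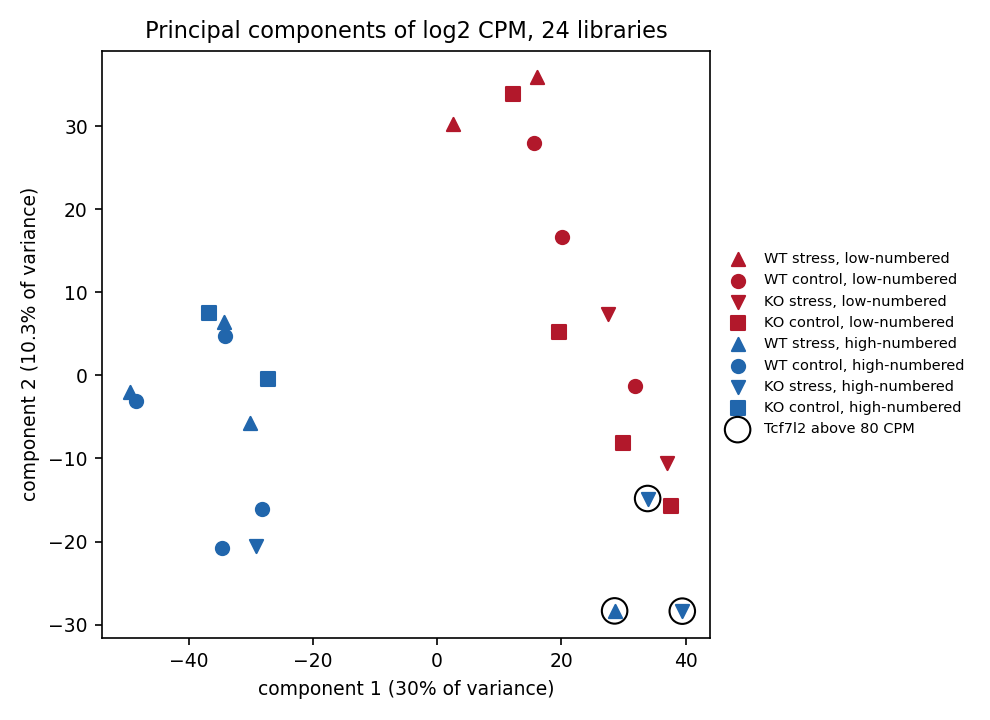
Principal components of log2 CPM for the 24 libraries, with colour for the set and symbol for the group. On component 1 (30% of the variance) all 11 low-numbered libraries lie above 0 and 10 of the 13 high-numbered ones below -27. The 3 circled high-numbered libraries, those with Tcf7l2 above 80 CPM, also lie above 0 there. On component 2, KO stress replicate 3 (-28.4) and WT stress replicate 5 (-28.3) lie below every low-numbered library (lowest -15.7).

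Across all genes the sets differed widely. At an adjusted p under 0.05 edgeR called 1559 genes higher (9.56% of those tested) and 1826 lower (11.2%) in the low-numbered set, 20.8% together. The counts of list members called, given below, are to be read beside these shares. The ranges of the sets did not overlap at all for 53 genes that were higher (0.325%) and 61 that were lower (0.374%). A difference of at least 1 on the log2 scale was seen for 381 genes on the higher side and 134 on the lower side. The median over all genes was -7.75e-05. The scaling of the libraries places most genes near 0, so this median cannot show whether genes were shifted as a whole. Without the 3 libraries with Tcf7l2 above 80 CPM the same model called 2686 genes higher and 2479 lower, and 429 and 446 genes had ranges that did not overlap. In control libraries alone the counts were 2028 and 1791, and in stress libraries alone 133 and 203.

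The ribosomal precursor and Malat1 were high in every low-numbered library. Rn45s had 24298, 36326 and 50424 CPM in the low-numbered libraries (lowest, median and highest), against 4238, 5896 and 8394 CPM in the high-numbered ones, a difference of 2.58 ± 0.13 or 5.97-fold. It took 2.42% to 5.05% of all counts in the low-numbered set and 0.411% to 0.879% in the high-numbered set. The lowest low-numbered library, KO control replicate 1, was still well above the highest high-numbered one, KO control replicate 6, so the sets left a gap. Malat1, at chr19:5795690-5802672 (minus strand, GRCm38), had 1059.7, 1324 and 1873 CPM in the low-numbered set, against 421, 606 and 793 CPM in the high-numbered set, 1.23 ± 0.12 on the log2 scale. Its difference was 1.19 in WT stress, 1.59 in WT control, 1.03 in KO stress and 0.998 in KO control, so it had the same sign in all 4 groups.

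Lars2 encodes the leucyl-tRNA synthetase of mitochondria and lies at chr9:123366927-123462666 (plus strand, GRCm38). It had 1516, 1895 and 2561 CPM in the low-numbered libraries, against 474, 539 and 979 CPM in the high-numbered ones, a difference of 1.61 ± 0.12 and 3.06-fold, with no overlap. Cdr1, which on its opposite strand gives the circular RNA Cdr1as, had 17.9, 28.4 and 39.5 CPM in low-numbered libraries, against 3.85, 6.49 and 10.8 CPM in high-numbered libraries, 2.03 ± 0.15. The labels do not say whether the counting used strand, so reads of the gene and of the circular RNA cannot be told apart. Mir6236, a short hairpin entry, had 6.86, 8.63 and 13.2 CPM in the low-numbered set, against 1.99, 2.9 and 5.46 CPM in the high-numbered set, 1.51 ± 0.16. Its mature sequence in RefSeq (GRCm38.p6, chr9:110281353-110281371, plus strand) is shown because this entry is the only microRNA entry whose ranges did not overlap, with its seed in capitals.
mmu-miR-6236: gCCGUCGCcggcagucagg
Counts on this entry come from libraries of longer RNA and do not measure the mature microRNA. Rmrp, the RNA of the ribonuclease that cuts the ribosomal precursor, had 0.2, 1.25 and 2.72 CPM in the low-numbered set, against 0.0658, 0.201 and 0.643 CPM in the high-numbered set, and these ranges overlapped.

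Among the other genes without overlap that were higher in the low-numbered set, the largest differences were those of Itgad, an integrin chain (1.68 ± 0.23), Plekhg4, a guanine nucleotide exchange factor (1.59 ± 0.17), Wisp1, a matricellular protein (1.43 ± 0.21), Rasgef1c (1.35 ± 0.20), Otof, a calcium sensor of vesicle release (1.34 ± 0.21), and the unnamed transcript 1700125G02Rik (1.27 ± 0.24). On the lower side they were those of Mndal, an interferon-inducible gene (-1.30 ± 0.16), Cd109, a membrane co-receptor (-1.19 ± 0.19), 9930014A18Rik (-1.18 ± 0.13), Gm20754 (-1.06 ± 0.13), the tetraspanin Tspan18 (-1.06 ± 0.11), the protocadherin Pcdh20 (-1.03 ± 0.11) and the integrin chain Itga8 (-1.03 ± 0.11). Otof had 20.3, 33.1 and 39.2 CPM in low-numbered libraries, against 4.57, 13.4 and 19.999 CPM in high-numbered libraries, and Pcdh20 had 20.5, 24.1 and 32.3 CPM in the low-numbered set, against 35.3, 48.4 and 78.5 CPM in the high-numbered set. In both genes the gap between the sets was smaller than the range inside either set.

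Other nuclear non-coding RNAs were mostly near 0. Of 21 nuclear long non-coding RNAs tested, 4 were called higher and 0 lower, and their median difference was 0.01. The 4 were Malat1, Rmst, Mirg and Kcnq1ot1. Neat1, the scaffold of nuclear paraspeckles, had 129.7, 165 and 205 CPM in low-numbered libraries, against 121, 163 and 276 CPM in high-numbered libraries, a difference of -0.03 ± 0.12 that was not called. Meg3, an imprinted non-coding RNA of neurons, differed by 0.21 ± 0.08, and Tug1 by -0.06 ± 0.04, neither called. Of 38 small nucleolar and Cajal body RNAs, which guide the modification of ribosomal and spliceosomal RNA, 0 were called higher and 1 lower, with a median of -0.17. Of 12 host genes of such RNAs 1 was called, Snhg5, at -0.27 ± 0.09. Replication-dependent histone genes, whose messages lack a poly(A) tail, had a median of -0.07, with 1 of 25 called higher and 0 lower.

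**Figure D2:**
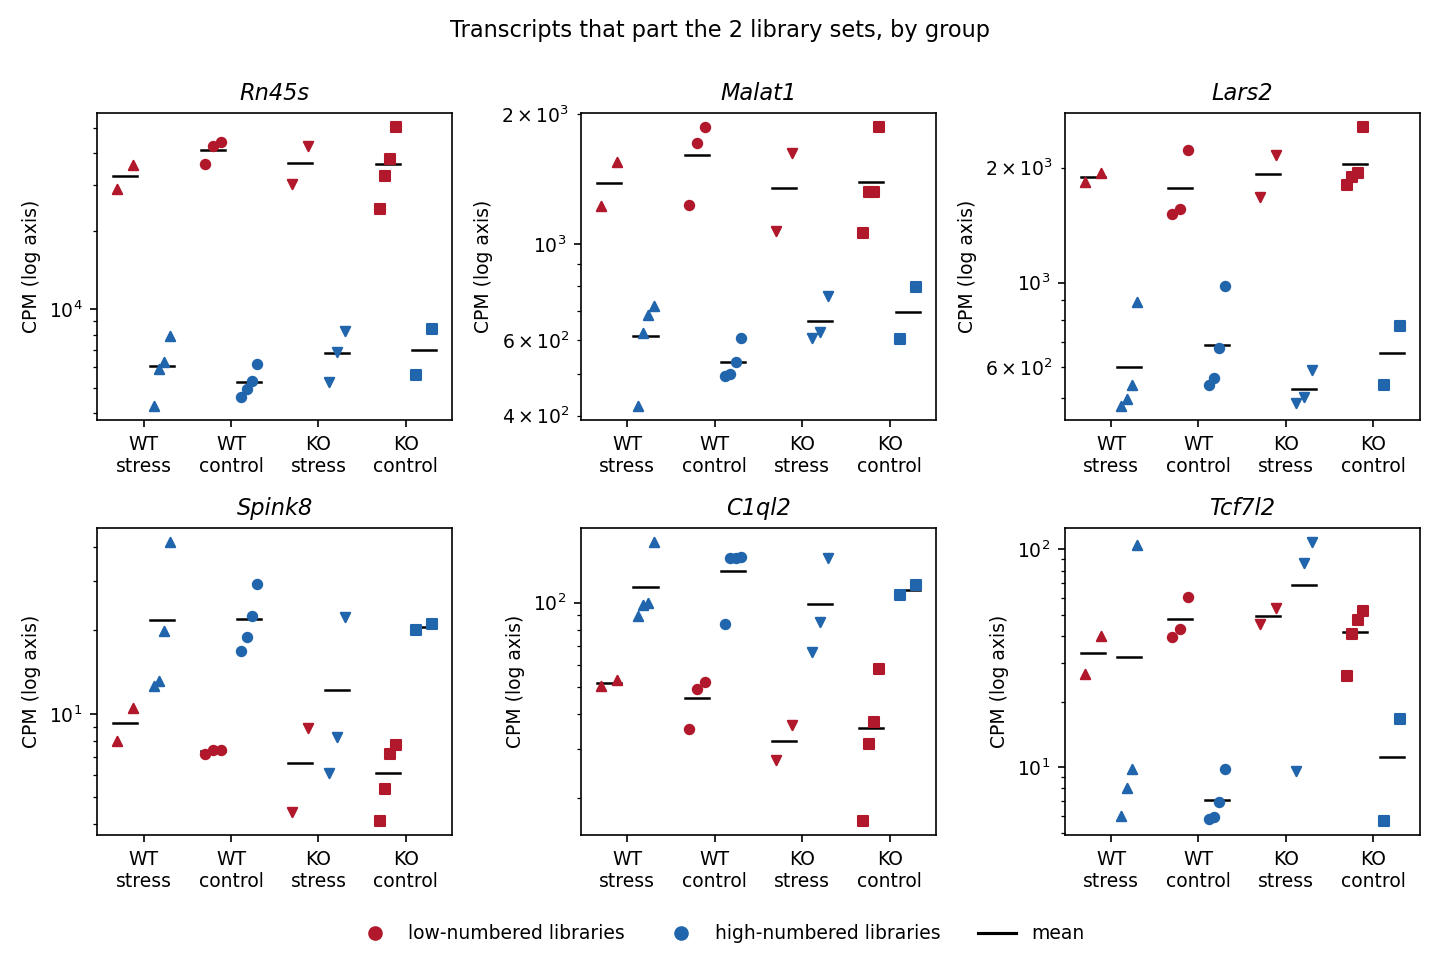
CPM (log axis) of 6 transcripts in each library, by group, with the low-numbered set in red left of the high-numbered set in blue and a black line at each mean. Rn45s, Malat1, Lars2 and C1ql2 leave no overlap between the sets, Spink8 overlaps, and Tcf7l2 is above 80 CPM in 3 high-numbered stress libraries.

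Lists for splicing and for the machinery of translation and respiration had medians near 0. Of 37 splicing factors and kinases, 8 were called lower (21.6%, against 11.2% of all genes tested) and 2 higher. Their median was -0.05, and 29 were below 0. Rsrp1, an arginine and serine rich protein of that list, had 179, 202 and 218 CPM in low-numbered libraries, against 219, 240.1 and 268 CPM in high-numbered libraries, and these ranges did not overlap although the difference was only -0.25 ± 0.04. Cytosolic ribosomal protein genes had a median of -0.03 and 1 of 84 was called higher and none lower, although the ribosomal RNA precursor itself was 5.97-fold higher. Nuclear-encoded respiratory chain genes had a median of 0.06, with 2 of 77 called lower. With genes split into 5 equal groups by the length of their longest GENCODE transcript, 14% of the longest group were called higher and 10.2% lower, against 7.35% and 6.92% of the shortest group. The median difference of the groups lay between -0.0208 and 0.0409.

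Transcripts of hippocampal principal neurons were lower in the low-numbered set. Of 20 markers of CA1 and CA3 pyramidal cells, 15 were called lower and none higher, with a median of -0.59. Spink8, a protease inhibitor of CA1 pyramidal cells at chr9:109812280-109826633 (plus strand, GRCm38), had 4.11, 7.39 and 10.5 CPM in the low-numbered libraries, against 6.11, 19.8 and 41.8 CPM in the high-numbered ones, -1.39 ± 0.23. KO stress replicates 3, 4 and 5 had 6.11, 22.3 and 8.26 CPM, and the ranges met in replicates 3 and 5, both with high Tcf7l2. Lefty1, a secreted inhibitor of Nodal signalling, had 2.38, 5.65 and 6.86 CPM in the low-numbered set, against 8.29, 15.6 and 24.6 CPM in the high-numbered set, -1.51 ± 0.17, with no overlap. Fibcd1, a marker of CA1, differed by -1.17 ± 0.19 and Wfs1, an endoplasmic reticulum protein of the same cells, by -0.53 ± 0.11.

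Dentate granule cells showed the same side. Of 18 markers 11 were called lower and 1 higher, with a median of -0.40. C1ql2, a synaptic organiser of mossy fibres, had 16.6, 37.6 and 57.8 CPM in low-numbered libraries, against 66.6, 107 and 165 CPM in high-numbered libraries, -1.47 ± 0.18 and 2.78-fold higher in the high-numbered set, with no overlap. Lct, the lactase gene, differed by -1.56 ± 0.19, Dsp, a desmosome protein, by -1.42 ± 0.19, and Prox1, the transcription factor that sets granule cell identity, by -0.62 ± 0.14. Of 11 CA2 markers 5 were called lower, among them the neurotrophin Ntf3 at -1.34 ± 0.16, and 1 was called higher. Among 21 general markers of excitatory neurons 14 were lower and 2 higher, with a median of -0.32. Gria1, an AMPA receptor subunit, had 367, 399 and 545 CPM in the low-numbered set, against 499, 725 and 900.0 CPM in the high-numbered set, -0.77 ± 0.08. Homer3, a postsynaptic scaffold, differed by -1.21 ± 0.13 and the ephrin receptor Epha7 by -1.02 ± 0.12, both without overlap. In bulk tissue, fewer cells of a type and less RNA per cell cannot be told apart.

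Markers of the hypothalamus and of the thalamus and habenula lay on the other side. All 22 hypothalamic markers were above 0, with a median of 1.24, and 5 were called. Cartpt, a neuropeptide precursor, had 21.1, 26.9 and 57.4 CPM in low-numbered libraries, against 1.79, 3.77 and 42.97 CPM in high-numbered libraries, 2.24 ± 0.51. Baiap3, a regulator of dense-core vesicles, differed by 1.92 ± 0.59, and its highest high-numbered value was again in a library with high Tcf7l2. All 23 thalamic and habenular markers were above 0 with a median of 0.55, but 2 were called higher (8.7%, against 9.56% of all genes tested). Tcf7l2 itself had 26.3, 42.98 and 60.7 CPM in the low-numbered set, against 5.66, 9.58 and 109 CPM in the high-numbered set, 1.26 ± 0.59, and was not called. Without the 3 libraries the counts changed by far more than 1.5 times: 20 of the 23 thalamic markers were called higher (median 1.18) and 20 of the 22 hypothalamic ones (median 2.60).

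Striatal and cortical markers did not depend on those 3 libraries to the same extent. Of 15 striatal markers 7 were called higher and none lower, with a median of 0.80, and the count was 7 without the 3 libraries. Ppp1r1b, the phosphatase inhibitor DARPP-32 of dopamine-receptive neurons, had 108, 154 and 524 CPM in low-numbered libraries, against 70.3, 105 and 176 CPM in high-numbered libraries, 0.80 ± 0.24. The dopamine receptor Drd2 differed by 1.40 ± 0.48. Of 16 neocortical markers 8 were called higher and 3 lower. Lamp5, a lysosomal membrane protein of cortical neurons, had 127, 142 and 163 CPM in the low-numbered set, against 23.4, 78.2 and 122 CPM in the high-numbered set, 0.98 ± 0.22, with no overlap. Foxp2, a transcription factor of deep cortical layers and thalamus, differed by 1.38 ± 0.39. Among 18 interneuron markers 5 were called higher and 1 lower around a median of 0.01. Of the 18, 9 were above 0 and 9 below, and the member shown here was among those above. Parvalbumin, Pvalb, had 90.4, 117 and 172 CPM in the low-numbered libraries, against 44.1, 74.5 and 104 CPM in the high-numbered ones, 0.63 ± 0.12. The part of tissue from other brain regions in these differences was not tested.

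**Figure D3:**
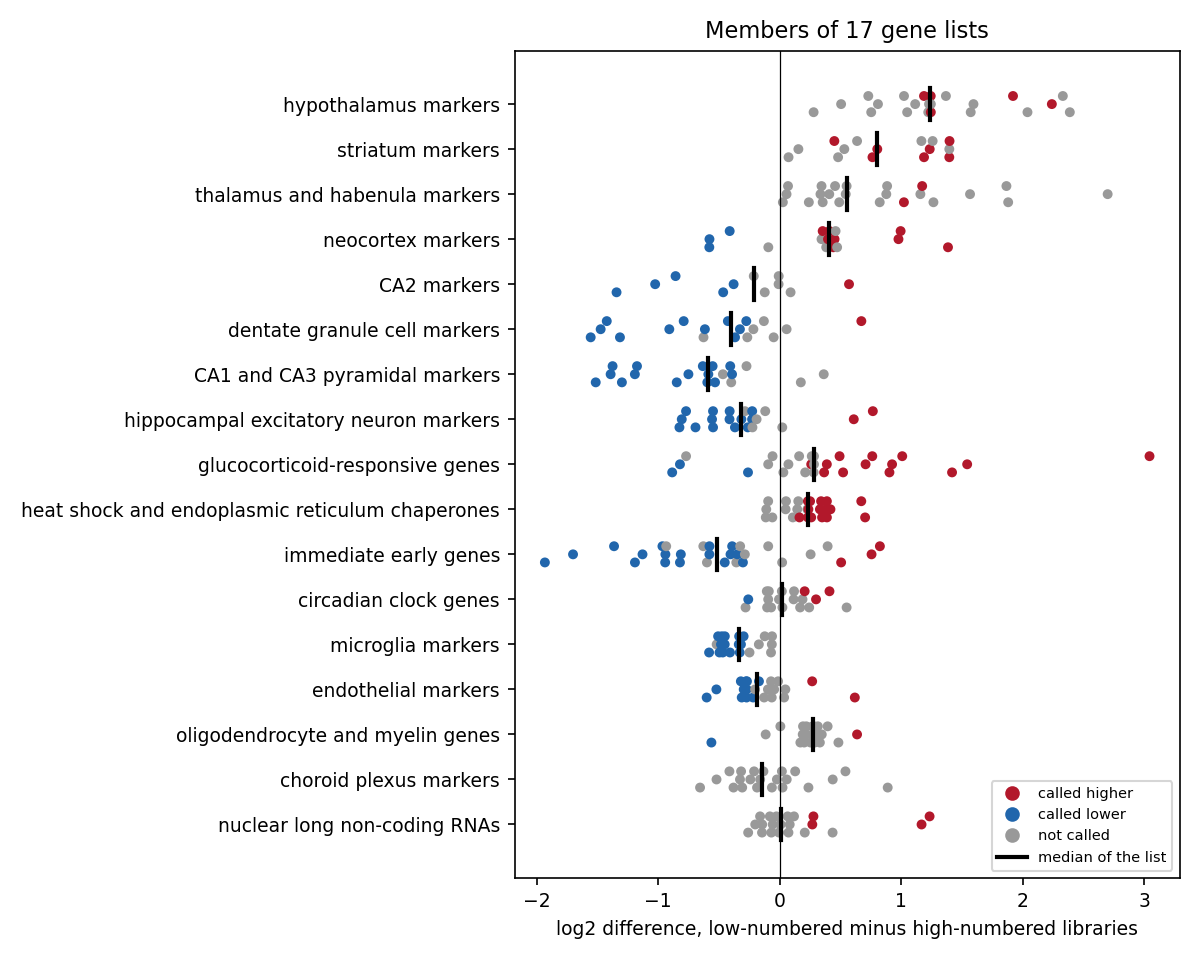
Log2 difference between the sets, low-numbered minus high-numbered, for every tested member of 17 gene lists, with red for genes called higher, blue for genes called lower, grey for genes not called and a black bar at each median. The medians of the hypothalamus, striatum, thalamus and neocortex lists lie right of 0. Those of the lists for hippocampal neurons and microglia lie left of 0.

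Microglial markers were also lower. All 21 microglial markers were below 0, 14 were called lower, and their median was -0.34. P2ry12, the purinergic receptor of resting microglia, had 12.5, 15.6 and 17.8 CPM in low-numbered libraries, against 17.9, 20.8 and 29.1 CPM in high-numbered libraries, -0.58 ± 0.08, with no overlap. Cx3cr1, the fractalkine receptor, differed by -0.45 ± 0.06, whereas Tmem119, another microglial marker, differed by -0.07 ± 0.07 and was not called. Of 22 endothelial markers 11 were called lower and 2 higher, with a median of -0.19. The VEGF receptor Kdr differed by -0.60 ± 0.11.

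Astrocyte markers had calls on both sides, 4 higher and 4 lower of 20. Of these markers 9 were above 0 and 11 below, with a median of -0.04, so Gfap alone does not stand for the list. Gfap, the intermediate filament of astrocytes, had 269.5, 309 and 371 CPM in the low-numbered set, against 383, 466 and 534 CPM in the high-numbered set, -0.52 ± 0.07, with no overlap. Of 23 myelin genes 21 were above 0 and 1 was called higher, against 17 without the 3 libraries with high Tcf7l2, where the median was 0.43 instead of 0.27. Myelin basic protein, Mbp, had 3201, 4314 and 5367 CPM in the low-numbered libraries, against 2091, 3587 and 6201 CPM in the high-numbered ones. Choroid plexus markers varied widely from library to library inside both sets: of 22 none was called, and Ttr, the plexus carrier of thyroid hormone, had 6.87, 1075 and 1734 CPM in the low-numbered set, against 10.6, 642 and 2439.5 CPM in the high-numbered set. Of 18 meningeal fibroblast markers 1 was called lower (5.56%), and of 14 pericyte and smooth muscle markers 2 were (14.3%), against 11.2% of all genes tested. No member of either list was called higher.

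Immediate early genes were mostly lower in the low-numbered set. Of 30 such genes 17 were called lower and 3 higher, with a median of -0.52. Btg2, an antiproliferative early gene at chr1:134075170-134079120 (minus strand, GRCm38), had 12.2, 14.3 and 17.5 CPM in low-numbered libraries, against 19.9, 28.1 and 91.5 CPM in high-numbered libraries, -1.70 ± 0.28, with no overlap. In the low-numbered set it was at 13.4 and 16.3 CPM in WT stress, 17.5, 14.9 and 15.7 CPM in WT control, 13.6 and 12.3 CPM in KO stress and 14.3, 12.2, 13.03 and 14.5 CPM in KO control. In the high-numbered set it was at 91.5, 50.3, 24.1 and 21.7 CPM in WT stress, 19.9, 23.5, 52.4 and 91.5 CPM in WT control, 20.8, 28.1 and 21.3 CPM in KO stress and 90.8 and 74.8 CPM in KO control. High and low values stood within the same high-numbered group, while no low-numbered library reached the lowest of them.

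Fos, the classical marker of recent neuronal activity, had 13.98, 20.6 and 26.8 CPM in the low-numbered set, against 6.54, 35.96 and 101 CPM in the high-numbered set, -1.13 ± 0.34, and its low-numbered range lay inside the high-numbered one. Npas4, which responds to calcium entry, differed by -1.36 ± 0.28, Junb by -1.19 ± 0.23 and Cyr61, a matricellular early gene, by -1.93 ± 0.39. The 3 genes called higher were Nptx2, a secreted synaptic pentraxin, at 0.82 ± 0.11, the scaffold Homer1 at 0.51 ± 0.10 and the transcription factor Maff at 0.76 ± 0.22.

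Promoter letters of the early genes are shown for Btg2, which with Jun (-0.58 ± 0.06) is 1 of 2 members without overlap, and for the members that share its match. The cyclic AMP response element TGACGTCA, which reads the same on both strands, stood in the RefSeq promoter window (250 bases before to 50 after the annotated start, GRCm38.p6) of Btg2, Maff and Dusp1, 3 of 24 early genes with a window, and in 1.79% of all 32851 windows. The 24 genes had 38 windows, so a share of genes is not a share of windows. The element was 1 of 8 patterns looked at, kept with the values known. The match is in capitals, on the strand of the gene.
Btg2, chr1:134079309-134079326, minus strand: aataaTGACGTCAgtgag
Maff, chr15:79347486-79347503, plus strand: ggcggTGACGTCActgca
Dusp1, chr17:26508603-26508620, minus strand: gcgggTGACGTCAccgcc
Btg2 and Dusp1, a phosphatase that switches off MAP kinases (-0.82 ± 0.24), were lower in the low-numbered set and Maff was higher, so genes with these letters lay on both sides.

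Many genes that respond to glucocorticoids were higher in the low-numbered set. Their list and that of the clock genes were written after the first look at the differences, so their counts only describe. Of 27 such genes 13 were called higher and 3 lower, with a median of 0.28, and 3 had ranges that did not overlap. Plin4, a lipid droplet coat protein at chr17:56100591-56109803 (minus strand, GRCm38), had the largest log2 difference of the genes without overlap, 3.04 ± 0.37, with 18.2, 34.7 and 82.4 CPM in low-numbered libraries, against 2.34, 4.31 and 13.7 CPM in high-numbered libraries. Cdkn1a, the cyclin-dependent kinase inhibitor p21, had 30.01, 44.9 and 66.6 CPM in the low-numbered set, against 9.18, 14.5 and 25.4 CPM in the high-numbered set, 1.54 ± 0.17, with no overlap. Tsc22d3, the glucocorticoid-induced leucine zipper, had 111, 125 and 164 CPM in the low-numbered libraries, against 44.6, 69.6 and 110.4 CPM in the high-numbered ones, 0.92 ± 0.12, again with no overlap. Hif3a, a hypoxia-inducible factor, differed by 1.42 ± 0.21, the sulfotransferase Sult1a1 by 1.01 ± 0.12, the arrestin-domain protein Arrdc2 by 0.90 ± 0.14, and Fkbp5, the co-chaperone of the glucocorticoid receptor, by 0.49 ± 0.11. The 3 called lower were Dusp1, Cebpd (-0.88 ± 0.12) and Bcl6 (-0.26 ± 0.09). Per1, a clock gene that glucocorticoids also induce, differed by -0.09 ± 0.11. Of 19 clock genes 3 were called higher (15.8%, against 9.56% of all genes tested) and 1 lower (5.26%, against 11.2%), with a median of 0.02. Arntl, the clock's activator, differed by 0.02 ± 0.05 and its output gene Dbp by -0.11 ± 0.08.

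The difference in these genes was larger in controls than under stress. In control libraries alone the median of the glucocorticoid list was 0.60, and in stress libraries alone 0.01. Plin4 was at 18.2 and 27.8 CPM in WT stress and 82.4, 73.5 and 52.7 CPM in WT control in the low-numbered set. In the high-numbered set it was at 2.41, 5.49, 9.01 and 13.7 CPM in WT stress and 2.73, 2.68, 4.31 and 2.54 CPM in WT control. Every low-numbered WT control thus exceeded every low-numbered WT stress library. In KO mice the low-numbered libraries had 23.8 and 44.6 CPM under stress and 33.7, 29.9, 34.7 and 37.9 CPM as controls, against 4.66, 7.39 and 11.8 CPM and 2.34 and 4.3 CPM in the high-numbered libraries.

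Sgk1, a kinase that glucocorticoids induce, was also higher in low-numbered than in high-numbered controls, while its stress libraries overlapped between the sets. Its values were 124 and 83.03 CPM in low-numbered WT stress and 185, 149.9 and 134 CPM in low-numbered WT control libraries. They were 84.9, 88.8, 151 and 123 CPM in high-numbered WT stress and 46.9, 49.1, 57.9 and 65.5 CPM in high-numbered WT control libraries. High-numbered WT controls lay below all other WT libraries. In KO mice Sgk1 was at 156 and 149 CPM under stress and 155, 165, 149 and 108 CPM in controls of the low-numbered set, and at 143, 139.9 and 158 CPM under stress and 59.8 and 87.8 CPM in controls of the high-numbered set.

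**Figure D4:**
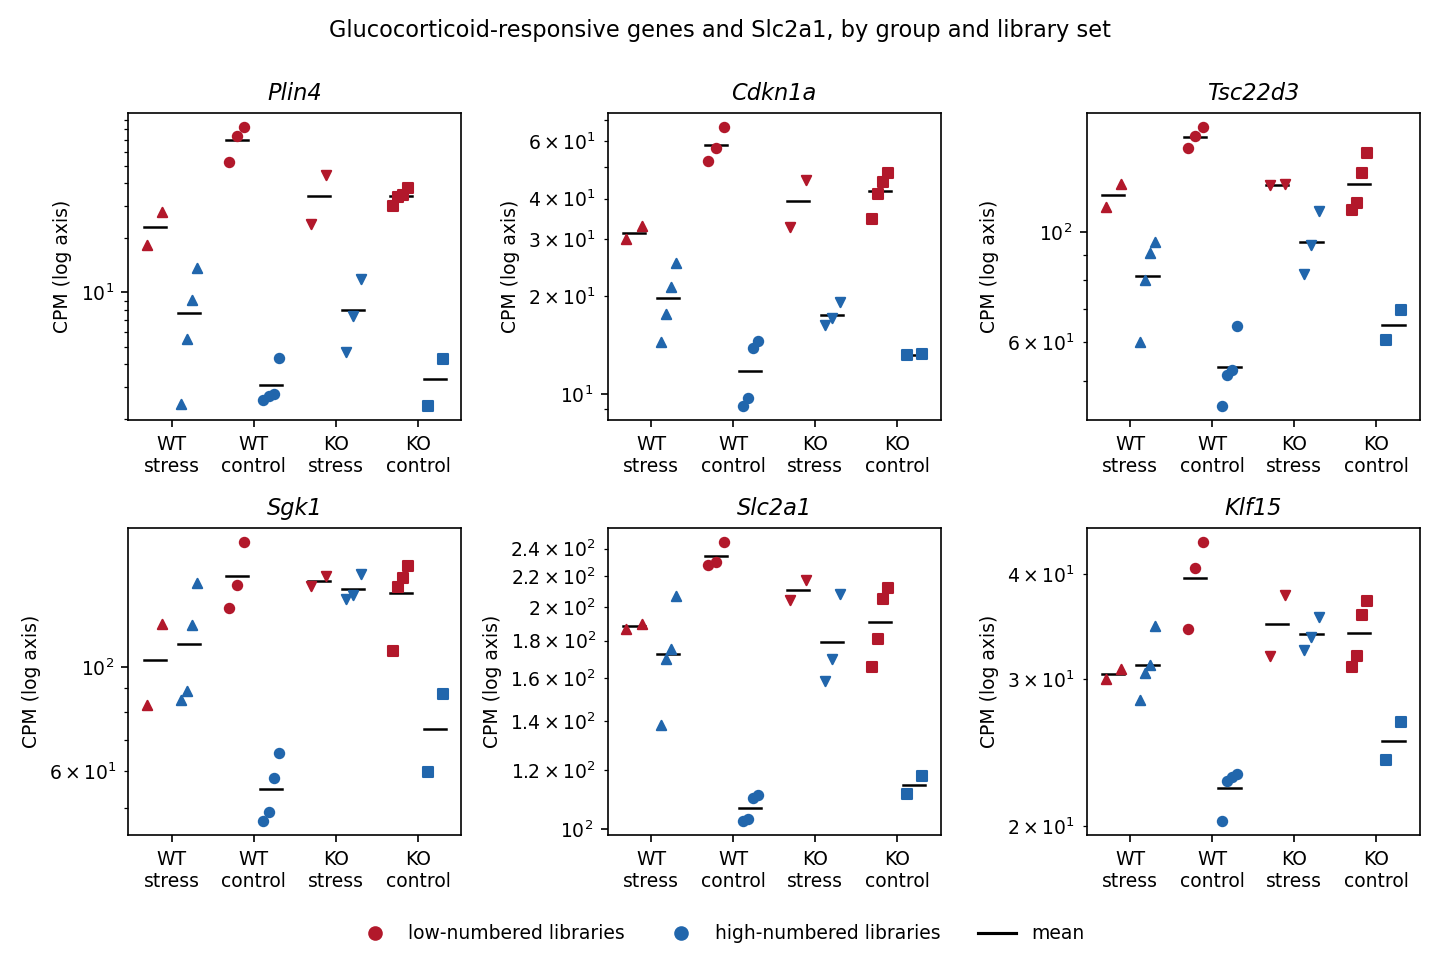
CPM (log axis) of 5 glucocorticoid-responsive genes and of Slc2a1 in each library, by group, with the low-numbered set in red left of the high-numbered set in blue and a black line at each mean. In the high-numbered set the controls lie below most stress libraries, while in the low-numbered set WT controls lie above WT stress libraries.

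The test left free by the choice of the sets asked whether stress acted differently in them. With the stress effect averaged over the genotypes, 3 genes (0.0184% of those tested) had an interaction of set and stress at an adjusted p under 0.05 in edgeR's quasi-likelihood test. At an unadjusted p under 0.05 in the same test there were 2649 genes of 16313. Slc2a1, the glucose transporter of the blood-brain barrier at chr4:119108711-119137983 (plus strand, GRCm38), had an interaction of -0.76 ± 0.13 on the log2 scale (edgeR adjusted p = 0.045). The stress effect was -0.09 ± 0.09 in the low-numbered set and 0.67 ± 0.09 in the high-numbered set. Its values were 187 and 189.8 CPM in low-numbered WT stress and 245, 228 and 230.4 CPM in low-numbered WT control libraries, and 169.7, 138, 175 and 207 CPM in high-numbered WT stress and 103, 102, 111 and 110.2 CPM in high-numbered WT control libraries. In low-numbered KO libraries it was at 205 and 218 CPM under stress and 205, 166, 181 and 212 CPM in controls, and in high-numbered KO libraries at 159, 170.1 and 208 CPM under stress and 111 and 118 CPM in controls. Stress libraries were thus above controls in both genotypes of the high-numbered set, and below them in WT of the low-numbered set.

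F3, tissue factor, which starts coagulation and is made by astrocytes, had an interaction of -0.60 ± 0.10 (edgeR adjusted p = 0.045), with a stress effect of -0.26 ± 0.07 in the low-numbered and 0.33 ± 0.07 in the high-numbered set. Klf15, a Krüppel-like factor that glucocorticoids induce, had an interaction of -0.63 ± 0.11 (edgeR adjusted p = 0.045), with -0.17 ± 0.08 in the low-numbered and 0.46 ± 0.07 in the high-numbered set. At an adjusted p under 0.1 there were 39 genes, 38 of them with a more negative stress effect in the low-numbered set. Among those were Sgk1 (-1.27 ± 0.23), Pdk4, a kinase of pyruvate metabolism (-1.22 ± 0.23), Cdkn1a (-1.08 ± 0.20) and Arrdc2 (-1.003 ± 0.19), each at an edgeR adjusted p of 0.0522, and Tsc22d3 (-0.78 ± 0.16, edgeR adjusted p = 0.0553). Plin4 was outside those 39, with an interaction of -2.09 ± 0.48 (edgeR adjusted p = 0.119). Of the 27 genes of the list 24 had an interaction below 0, with a median of -0.53, and 1 was called.

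The number of these calls depended on the setting and on single libraries. With all 24 libraries it was 0 under RLE scaling, with no filter on low counts and with Rn45s and Lars2 left out before scaling, 125 with DESeq2 and 888 with limma voom. Without the 3 libraries with high Tcf7l2, all of them stress libraries of the high-numbered set, no interaction was called by edgeR, while Slc2a1 kept -0.71 ± 0.13 (edgeR adjusted p = 0.131), Klf15 -0.62 ± 0.13 (edgeR adjusted p = 0.177) and F3 -0.51 ± 0.11 (edgeR adjusted p = 0.196). Over all genes tested the interaction was below 0 for 54.6%, with a median of -0.03. It was below 0 for all 22 choroid plexus markers (median -2.11), all 22 hypothalamic markers (median -2.34) and 22 of 23 myelin genes (median -0.53), none of which was called, and the part of these tissues in it was not tested. Other lists lay on the other side: it was below 0 for only 2 of 84 cytosolic ribosomal protein genes (median 0.28), 3 of 77 respiratory chain genes (median 0.26) and 6 of 77 mitochondrial ribosomal protein genes (median 0.21), none of them called.

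Within each set alone, stress was called for 127 genes higher (0.779% of those tested) and 11 lower in the high-numbered set, and for no gene in the low-numbered set, where 1109 genes had an unadjusted p under 0.05 in edgeR and the smallest adjusted p was 0.0782. In the high-numbered set 2966 genes had an unadjusted p under 0.05 in edgeR. The low-numbered set has 4 stress libraries and 7 controls, the high-numbered set 7 and 6. In the high-numbered set Sgk1 rose under stress by 1.01 ± 0.15 (edgeR adjusted p = 0.00227), Arrdc2 by 0.86 ± 0.13 (edgeR adjusted p = 0.00142), Maff by 1.39 ± 0.25 (edgeR adjusted p = 0.00731) and Slc2a1 by 0.67 ± 0.09 (edgeR adjusted p = 0.000443). Without the 3 libraries with high Tcf7l2, 42 genes were called higher and 0 lower, and Sgk1 was at 0.89 ± 0.17 (edgeR adjusted p = 0.0324) and Slc2a1 at 0.63 ± 0.10 (edgeR adjusted p = 0.00327). For the interaction of set and genotype no gene was called by edgeR or DESeq2 and 1 by limma voom. In edgeR 1048 genes had an unadjusted p under 0.05 in it, and the smallest adjusted p was 0.724.

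The glucocorticoid response element, AGAACA and TGTTCT with any 3 bases between them, was searched in the same promoter windows on both strands. It stood in 1 of 24 glucocorticoid-responsive genes with a window, Sgk1, and in 0.00913% of all windows. Those 24 genes had 35 windows, so a share of genes is not a share of windows. The window of Sgk1 is shown whole because that gene has the site and the layout described above, with the fixed letters of the element in capitals (RefSeq, GRCm38.p6, chr10:21993640-21993939, plus strand).
Sgk1: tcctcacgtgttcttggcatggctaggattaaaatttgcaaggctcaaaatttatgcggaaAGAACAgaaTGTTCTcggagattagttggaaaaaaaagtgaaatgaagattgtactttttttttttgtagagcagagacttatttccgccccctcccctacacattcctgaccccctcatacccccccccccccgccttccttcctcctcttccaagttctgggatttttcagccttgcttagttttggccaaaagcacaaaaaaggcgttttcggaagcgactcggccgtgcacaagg
No match in the other windows says only that these letters are not within them.

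Many chaperones were higher in the low-numbered set. Of 25 heat shock and endoplasmic reticulum chaperones 15 were called higher and none lower, with a median of 0.23. Without the 3 libraries with high Tcf7l2, 17 were called higher and 2 lower. Hspa5, the chaperone BiP of the endoplasmic reticulum, had 245, 303 and 397 CPM in low-numbered libraries, against 164, 191 and 269 CPM in high-numbered libraries, 0.67 ± 0.09. Its differences were 0.56 in WT stress, 1.03 in WT control, 0.11 in KO stress and 0.79 in KO control. Sdf2l1, another protein of that compartment, differed by 0.70 ± 0.11, the disulfide isomerase Pdia6 by 0.39 ± 0.06, Creld2 by 0.39 ± 0.09, Xbp1, a transcription factor of the unfolded protein response, by 0.38 ± 0.06, and Calr, calreticulin, by 0.26 ± 0.05. The heat-inducible Hspa1a and Hspa1b of the cytosol, near-identical copies whose reads may be split, were at -0.11 ± 0.11 and -0.11 ± 0.11 and not called, and the mitochondrial Hspd1 was at 0.05 ± 0.04. Other members outside the endoplasmic reticulum were called higher as well: the small heat shock protein Hspb1 (0.42 ± 0.12), Hsph1 (0.25 ± 0.05), the member without overlap, Chordc1 (0.24 ± 0.07), the constitutive Hspa8 (0.23 ± 0.05) and Hsp90aa1 (0.16 ± 0.04).

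The endoplasmic reticulum stress element, CCAAT and CCACG with any 9 bases between them, was found on either strand in the promoter windows of 6 of 21 genes of the chaperone list, Hspa5, Calr, Hsp90b1, Canx, Pdia6 and Creld2, and in 0.119% of all windows. The 21 genes had 28 windows, so a share of genes is not a share of windows. The first match in each gene with 5 bases on each side is shown because this element is the known site through which the unfolded protein response raises such genes, with the fixed letters in capitals and on the strand of the gene (RefSeq, GRCm38.p6).
Hspa5, chr2:34772020-34772048, plus strand: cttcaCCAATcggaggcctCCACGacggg
Calr, chr8:84847070-84847098, minus strand: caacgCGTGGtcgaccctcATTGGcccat
Hsp90b1, chr10:86705633-86705661, minus strand: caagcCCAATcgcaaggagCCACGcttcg
Canx, chr11:50325795-50325823, minus strand: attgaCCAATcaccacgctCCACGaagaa
Pdia6, chr12:17266486-17266514, plus strand: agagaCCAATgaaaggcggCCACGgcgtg
Creld2, chr15:88819515-88819543, plus strand: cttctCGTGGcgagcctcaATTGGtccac
Of these 6, Canx was not called (0.15 ± 0.06) and the other 5 were called higher. A match is a description of the letters and shows no binding.

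Within each set, where Rn45s had not been used to choose libraries, Malat1 moved with it. Over the 11 low-numbered libraries Pearson's r of log2(CPM + 0.5) was 0.898 and Spearman's rho 0.891 (permutation test, two-sided, adjusted p = 0.0008 and 0.00184 over the 8 relations, raw p = 0.0002 and 0.00046), and over the 13 high-numbered libraries r was 0.856 and rho 0.857 (permutation test, adjusted p = 0.0008 and 0.00184, raw p = 0.00018 and 0.00036). Without the 2 libraries farthest from the median of Rn45s, r was 0.85 in the low-numbered and 0.759 in the high-numbered set. Spink8 moved the other way. Its r was -0.70 and rho -0.791 in the low-numbered set (permutation test, adjusted p = 0.0328 and 0.0141, raw p = 0.0164 and 0.00551) and r -0.71 and rho -0.725 in the high-numbered set (permutation test, adjusted p = 0.0167 and 0.0141, raw p = 0.00625 and 0.00705), and -0.684 and -0.805 without the 2 farthest libraries. For Lars2 no relation over all libraries of a set passed: r was -0.404 and rho -0.473 in the low-numbered set (permutation test, adjusted p = 0.249 and 0.168, raw p = 0.218 and 0.147) and r 0.319 and rho 0.126 in the high-numbered set (permutation test, adjusted p = 0.287 and 0.683, raw p = 0.287 and 0.683). Without the 2 farthest libraries r was -0.734 in the low-numbered set (permutation test, p = 0.0262). For Tcf7l2 in the low-numbered set r was 0.614 and rho 0.645 (permutation test, adjusted p = 0.0601 and 0.0482, raw p = 0.045 and 0.0362), and r was 0.401 without the 2 farthest libraries. Over the 13 high-numbered libraries, where Tcf7l2 falls into separate clusters, the test of rho passed and that of r did not (permutation test, adjusted p = 0.0209 and 0.0601), and no pooled coefficient is read. Over the 10 high-numbered libraries without high Tcf7l2, a subset chosen after seeing the data, r was 0.714 and rho 0.552 for Tcf7l2 (permutation test, adjusted p = 0.0308 and 0.119) and r was 0.709 and rho 0.721 for Lars2 (permutation test, adjusted p = 0.0308 and 0.0477). In the same 10 libraries r was 0.832 and rho 0.745 for Malat1 (permutation test, adjusted p = 0.0107 and 0.0477) and r was -0.71 and rho -0.648 for Spink8 (permutation test, adjusted p = 0.0308 and 0.0645). Without the 2 of these 10 libraries farthest from the median of Rn45s, r was 0.56 for Lars2 (permutation test, raw p = 0.149). It was then 0.572 for Tcf7l2, 0.634 for Malat1 and -0.765 for Spink8 (permutation test, raw p = 0.144, 0.0942 and 0.023). Over all 10 libraries of that subset Lars2 thus passed with a positive r, and its r in the low-numbered set was below 0. The within-set relations share their libraries across genes, and depth per library was alike in the sets. Malat1, Lars2 and Spink8 were picked as markers of these sets. Genes other than these and Tcf7l2 were not tested against Rn45s. The p-values thus do not show that the tested genes stand out from other genes.

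**Figure D5:**
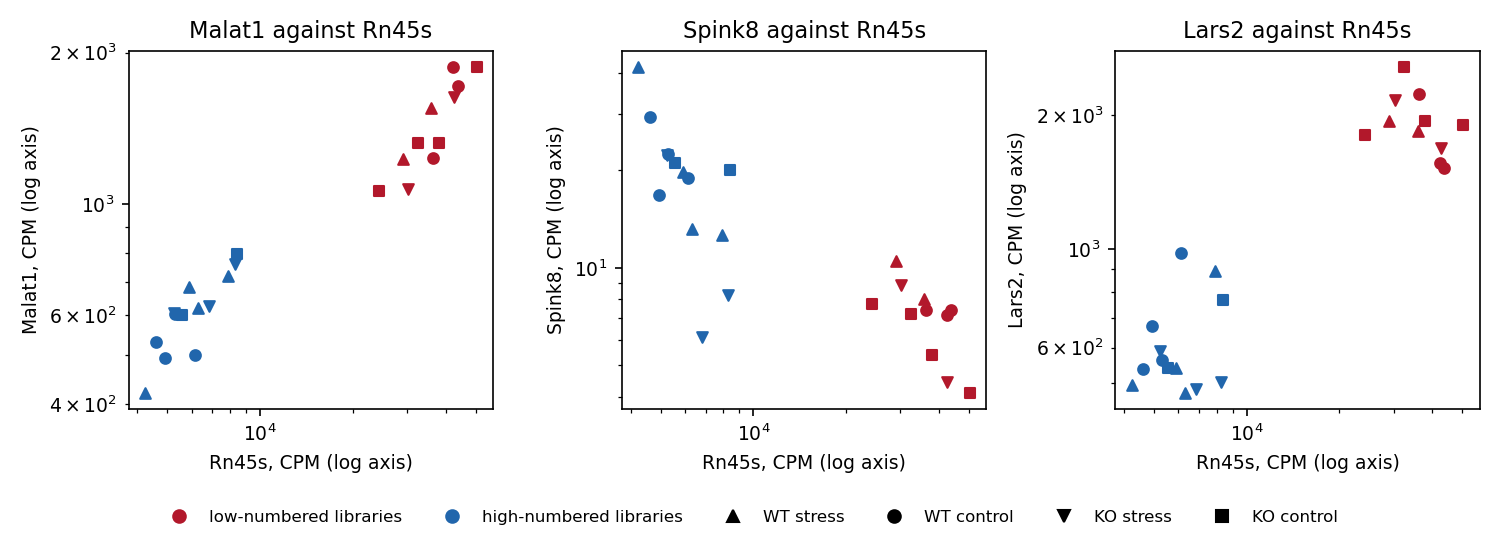
CPM of Malat1, Spink8 and Lars2 against CPM of Rn45s in each library (log axes), with red for the low-numbered and blue for the high-numbered set and a symbol for each group. Malat1 rises with Rn45s inside both sets (r 0.898 and 0.856), Spink8 falls (r -0.70 and -0.71), and Lars2 shows no relation that passed the test over all libraries of a set (r -0.404 and 0.319).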

How the data were processed

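RNA sequencing of mouse hippocampus was used from 24 libraries. The values are whole-number counts per gene as deposited; the labels state Tri-Reagent extraction, TapeStation quality control and Illumina sequencing, and the submitters' processing notes name STAR, DESeq2 and mm10 without versions, roles or a counting tool. Between 70.9% and 75.8% of counts from 1 to 10 were even numbers, so a count may not be 1 fragment, and intervals or floors in fragments were not formed. The library sets and gene lists were chosen with earlier results of these data known; the glucocorticoid and clock lists were added after the differences were seen.

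Counts were scaled by TMM and filtered with filterByExpr (minimum count 10) in edgeR 4.0.16 (R 4.3.3). A robust quasi-likelihood model with the 4 groups plus set gave the set difference, and a model of 8 means of group by set gave the interactions (averaged over the other factor) and the stress effects inside each set. P-values were Benjamini-Hochberg adjusted over all genes tested, with a threshold of 0.05. CPM are TMM-scaled. Correlations within sets used log2(CPM + 0.5) and 100000 permutations. DESeq2 1.42.0, limma voom 3.58.1, other scalings and filters, subsets and single replicates left out were alternatives; the model was checked on simulated data. Same-numbered libraries of different groups had correlated deviations in 8 of 33 pairs (r over 0.1; range -0.351 to 0.348), so replicate numbers were not taken as pairs. No 2 libraries agreed within sampling noise.

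Named genes were Rn45s, Malat1, Lars2, Spink8 and Tcf7l2, the 12 largest and 12 smallest log2 differences among genes without overlap and a mean of at least 1 CPM in either set, up to 3 members of each list farthest from 0 on the side of its median, and the genes called in an interaction; further genes were named for their known roles, with their values known. Not every gene that this rule names is reported here. Sequences are from RefSeq and positions from GENCODE M21, both on GRCm38, the assembly that mm10 names.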

Additional observations from a re-analysis of the deposited data

Results flagged for a closer look

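The stress effect differed between the sets for 3 genes by the interaction test: -0.756 on the log2 scale for Slc2a1, -0.628 for Klf15 and -0.596 for F3 (low-numbered minus high-numbered, edgeR adjusted p = 0.045 each).

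In groups of 4 libraries inside a set, a library was set apart where its gap to the nearest other library exceeded Dixon's 95% critical share of the group's range. This was so in 16 of 282 cases of a gene in a group, near the share of about 1 in 20 that chance gives. The cases named here may thus be chance. In high-numbered WT stress, replicate 5 was the highest for Tcf7l2 (gap 0.832 of the range) and Baiap3 (0.899) and the lowest for Arntl (0.902), and replicate 6 was the highest for Homer3 (0.851), Cebpd (0.842) and Hspa8 (0.916). In high-numbered WT control, replicate 7 was the lowest for C1ql2 (0.989) and Lct (0.916) and the highest for Drd2 (0.841), replicate 5 the lowest for Klf15 (0.842), and replicate 6 the lowest for P2ry12 (0.944) and the highest for Plin4 (0.87). In low-numbered KO control, replicate 1 was the highest for Hspa5 (0.837), Hspa1b (0.834) and Rsrp1 (0.921), and replicate 2 the lowest for Tspan18 (0.841). Replicate 1 of that group also had the lowest Rn45s level of the low-numbered set and replicate 2 the highest, and the part of this in those values was not tested.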

How the results depend on the processing

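The counts of genes called between the sets (1559 higher and 1826 lower) stayed within 1.5 times under RLE scaling, DESeq2, limma voom, both other filters, leaving out Rn45s and Lars2 before scaling, no group terms, control libraries alone, and each replicate left out (1234 to 1935 higher, 1513 to 1989 lower), with these exceptions. Without the 3 libraries with high Tcf7l2, 2686 were higher, 429 and 446 did not overlap, and the stress interaction had 0 calls. In control libraries alone 859 and 890 did not overlap, and in stress libraries alone 133 were higher, 203 lower, and 284 and 445 did not overlap, with fewer libraries in each. With a replicate block 16 were higher and 18 lower, all 34 among the main calls, and 31 genes had a stress interaction; the numbers nearly fix the set within a group, and they do not pair the samples. Genes without overlap ranged from 53 to 76 higher and 58 to 101 lower with each replicate left out.

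The count of 3 stress interactions was 0 under RLE scaling, with no filter on low counts and without Rn45s and Lars2, 125 with DESeq2 and 888 with limma voom. With each replicate left out it ranged from 0 to 65 and was 0 in 15 of 24 refits, so the number of calls changes with single libraries. It was highest without WT control replicate 3 (65) and KO stress replicate 4 (35). Without a replicate the genotype interaction ranged from 0 to 1 and was 1 with limma voom. Stress calls inside the high-numbered set (127 higher, 11 lower, alternatives chosen after seeing the data) were 42 and 0 without the 3 libraries, 5 lower with no filter, and 25 to 864 higher and 1 to 721 lower with each replicate left out. The 864 were without KO stress replicate 4, the 25 and 28 without KO control replicates 6 and 5, and the 50, 70, 71 and 215 without KO stress replicate 5, WT stress replicate 5, WT control replicate 4 and WT stress replicate 6. Inside the low-numbered set they ranged from 0 to 2 higher and 0 to 1 lower.

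With each replicate left out, r with Rn45s ranged from -0.793 to -0.57 for Spink8 in the low-numbered set and -0.845 to -0.615 in the high-numbered set, and from 0.391 to 0.736 and 0.455 to 0.683 for Tcf7l2, whose high-numbered libraries fall into clusters, so that its r there was not read as a relation. Without the 3 libraries with high Tcf7l2, r passed the test in the high-numbered set for Lars2 (0.709) and Tcf7l2 (0.714). These r were 0.56 and 0.572 when the 2 libraries farthest from the median of Rn45s were also left out. The call for Spink8 was lost in the low-numbered set without KO control replicate 2, KO stress replicates 1 or 2 or WT stress replicate 1, and in the high-numbered set without WT stress replicate 6.

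Of 9504 recomputed gene differences 21 changed the sign of a called gene. Within stress libraries alone Sgk1 was at -0.0235, and within WT stress Sgk1 was at -0.119 and Klf15 at -0.036. Under the block Erbb4 was at -0.0323 and Psmb8 at 0.029. Within WT control Klf2 was at 0.0856, Klf4 at 0.127 and Vwf at 0.0398. Within KO stress, values were -0.0963 for Chordc1, -0.00655 for Creld2, -0.235 for Enpp6, 0.0423 for Gpr34, -0.0078 for Hsp90aa1, -0.096 for Hspb1, 0.0547 for Nr1d1, -0.0476 for Nr1d2, 0.066 for P2ry13, -0.0996 for Pdia4, 0.246 for Psmb9, 0.025 for Ranbp3l and 0.229 for Scgn. The cause was not tested. List medians moved beyond their spread in 16 of 986 recomputations: in stress libraries alone those of the thalamic list (-0.09) and of myelin genes (-0.03) were below 0. The precision of all low genes is limited by depth. In these libraries 3 counts stood for 0.0854 to 0.117 CPM, and counts may not be whole fragments.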
